A study of Squalius alburnoides and Squalius pyrenaicus with 4 samples.

Results

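The comparison of the triploid hybrid PAA with the diploid hybrid PA of the *Squalius alburnoides* complex was made on 2 of the 4 microarrays of the series. Its members are the probes that carry a zebrafish miRNA name: 218 are printed on the chip, 168 were detected on PAA and 164 on PA, and the 147 detected on both are compared here. In these Iberian cyprinid fish of hybrid origin, the letter P denotes the *S. pyrenaicus* genome and A the genome of the other ancestor. PAA therefore carries an additional A genome beside the P and A that PA also has. Each array was hybridized with Cy3-labelled total RNA of adult fish, a pool of brain, muscle and liver from 3 individuals on average. The remaining arrays, of the non-hybrid AA and of the parental PP, served only to set the normalization and as a comparison.

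Each composition had 1 array, so no difference below has a replicate check and no test was made. The errors given are standard errors (SE) between a probe's spots, and they measure the spread within an array only. PAA and PA were hybridized on the same slide but in different parts of its length, so ploidy and position on the slide cannot be told apart. The study describes PAA as mainly female, so sex may also differ between the pools. The probes were designed for zebrafish, and members of a family with near-identical sequences can share a probe's signal. A lower signal in a pool of 3 tissues does not separate fewer cells of a type from less RNA per cell.

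MicroRNAs (miRNAs) are short RNAs that lower the stability and translation of the messenger RNAs they pair with. A precursor hairpin gives a mature guide strand and, usually at a lower level, a partner strand, written with an asterisk. Many miRNAs are transcribed together in clusters, and many are restricted to 1 tissue, such as miR-122 in liver, miR-206 in skeletal muscle and miR-124 in neurons.

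The hybrid arrays gave similar signals for most zebrafish probes. Of the 147 probes, 75 were higher on PAA, 71 were lower and 1 was equal, which makes 51% higher (95% Wilson interval 43.0 to 59.0, counting error over probes only) and 48.3% lower. The median difference was 0.02 on the log2 scale, and the middle 50% of probes lay between −0.20 and 0.31. Quantile normalization gives the arrays a shared distribution of levels. The near-even split and the small median are therefore largely set by it and are no finding on the total level. More than 2-fold differences were found for 5 probes (3.4%), 3 higher (2.04%) and 2 lower (1.36%). More than 1.5-fold differences were found for 22 probes (15%), 12 higher (8.16%) and 10 lower (6.8%), and 86 (58.5%) lay within 1.25-fold. Across probes, the levels on the arrays had a Pearson correlation of 0.966 and a Spearman correlation of 0.859. Probes named only for invertebrate miRNAs were detected nearly as often as zebrafish probes, 67.8% of them on PAA and 72.7% on PA. A similar probe signal is therefore not by itself a similar level of the named miRNA. AA and PP differed more than 2-fold at 32 of 130 probes (24.6%). That figure is no yardstick of noise for the hybrids, since PP is another species caught in another river and its array was noisier, with a median spot SD of 0.34 against 0.17 on PAA and 0.21 on PA, and a BLANK level of 516.

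**Figure D1:**
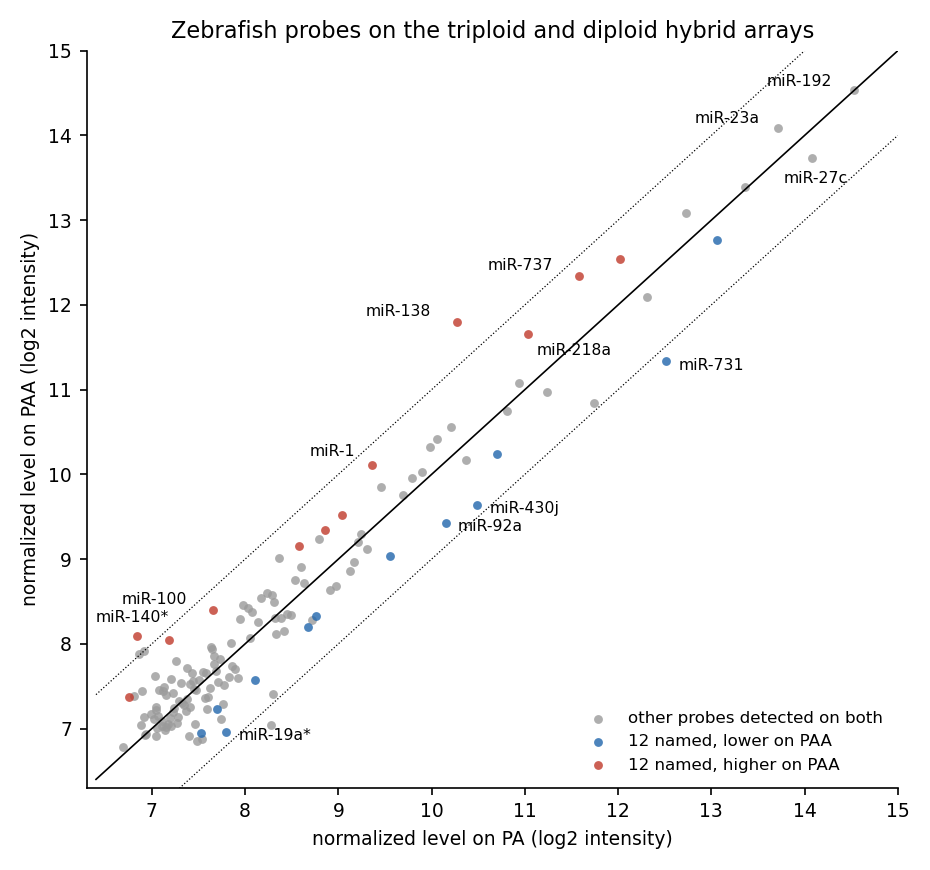
Normalized level of each of the 147 zebrafish probes detected on both hybrid arrays, PA on the horizontal and PAA on the vertical axis, both in log2 intensity. The solid line marks equal levels and the dotted lines 2-fold differences; red and blue points are the 12 largest higher and lower values with spots that did not overlap, and 5 points lie beyond the dotted lines.

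The spots of a probe did not overlap between the arrays for 46 of the 147 probes (31.3%), 29 of them higher on PAA (19.7%) and 17 lower (11.6%). With the probes ranked by level into 3 groups of 49, the dimmest group held 7 of these, the middle group 13 and the brightest 26, and the median SE was 0.27, 0.19 and 0.12 in that order. Small differences were thus resolved mainly for bright probes. The 95th percentile of the BLANK spots, which carry no probe, was 103 on PAA and 209 on PA, and 85 of the 147 probes exceeded this level on both arrays and 62 on PAA only. Among the 85, 42 were higher and 42 lower, and 3 lay beyond 2-fold.

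The choice of scale decides the balance of higher and lower probes. Scaling to the total signal moved the median of all probes by −0.15 and left 36.1% higher on PAA. Scaling to the control spots labelled Homo, whose target none of the sources names, moved it by −0.78 and left 4.76% higher, with 39 probes beyond 2-fold. A scaling of this kind shifts the unscaled difference of every probe by the same amount. It replaces the quantile step, so against the quantile-normalized differences the shift varies by probe and their order can change. No change of scale moved the median of all probes up by more than 0.005. As a check of direction, these settings therefore bear mainly on the higher probes and weakly on the lower ones. Each direction below is relative to the quantile-normalized arrays.

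The largest difference among probes with separate spots was that of miR-138, a neuronal miRNA known from dendritic spines in mammals. Its 4 spots read 3118, 3525, 3886 and 3797 on PAA and 1245, 1617, 1264 and 1227 on PA, as background-subtracted intensity. Every PAA spot lay above every PA spot, and the normalized difference was 1.52 ± 0.12 on the log2 scale, or 2.87-fold. It stayed higher on PAA under all 21 alternative settings, between 0.70 and 1.80. On AA against PP the same probe differed by only −0.02.

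The partner strand miR-140*, of a cartilage miRNA, was 1.25 ± 0.44 higher on PAA. This rests on 2 passing spots an array, 370 and 212 on PAA and 141 and 110 on PA, and the PA level lay under the BLANK level. The partner strand miR-17a* read 284, 306 and 237 on PAA and 164, 169 and 144 on PA, a difference of 0.87 ± 0.13, again with PA under the BLANK level. A probe of other vertebrates named miR-17-3p had the opposite sign (−1.04 ± 0.30). The teleost miR-737 read 4351, 4345 and 3586 on PAA and 3149, 3172 and 2573 on PA. Its difference was 0.76 ± 0.14, and it turned to −0.36 when spots that the scan had set aside were included and to −0.25 with Homo scaling.

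The muscle miRNA miR-1 had 4 spots of 1171, 1196, 1324 and 1370 on PAA and 2 of 775 and 790 on PA. The arrays did not overlap, and the difference was 0.75 ± 0.06, or 1.68-fold; with Homo scaling it was −0.03. miR-100, of the miR-99/100 family that shares clusters with let-7, read 403, 395, 376 and 362 on PAA and 213, 202, 231 and 224 on PA, and was 0.74 ± 0.06 higher. It was higher on PAA under all 21 settings. miR-218a, known from motor neurons, read 3044 to 3849 on PAA and 1770 to 2481 on PA, a difference of 0.63 ± 0.12.

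The other 5 of the 12 were miR-27a (0.61 ± 0.13), miR-454b (0.58 ± 0.17), miR-132 (0.52 ± 0.06), miR-21 (0.49 ± 0.13) and miR-199* (0.48 ± 0.04). miR-132, which neuronal activity induces, was among the brightest of these, with spots of 4465 to 5285 on PAA and 3776 to 4092 on PA. The value of miR-199* depends on the filter: a further PAA spot did not pass, and without the filter on dim spots the difference was −1.64. Of the 12, 9 exceeded the BLANK level on both arrays, and miR-140*, miR-17a* and miR-27a on PAA only. With Homo scaling 4 of the 12 kept their direction, namely miR-138, miR-140*, miR-17a* and miR-100.

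The largest difference the other way with separate spots was that of miR-731, a teleost miRNA that shares a precursor transcript with miR-462 and responds to hypoxia and virus infection in fish. Its spots read 2642, 2755, 2465 and 2448 on PAA and 4362, 4242, 4213 and 3997 on PA. All PAA spots lay below all PA spots. The normalized difference was −1.18 ± 0.05, which makes PA 2.26-fold higher. Its size, unlike its direction, depends on the normalization: it was −0.71 with no scaling and −0.84 when only the hybrid arrays were normalized to each other, both within 2-fold. The neighbour miR-462 read 172, 318, 112 and 121 on PAA and 120, 139 and 134 on PA, and its difference of 0.54 ± 0.35, with overlapping spots, had the opposite sign.

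miR-430j belongs to the miR-430 family, which clears maternal messenger RNA from the zebrafish embryo. It read 858, 910, 842 and 901 on PAA and 1784, 1541, 1369 and 1335 on PA, a difference of −0.85 ± 0.10. It was lower on PAA under all 21 settings, between −1.49 and −0.65. The other members did not share this: miR-430b was 0.36 ± 0.13 higher with spots that did not overlap, and the 4 spots of miR-430a ranged from 157 to 7655 on PAA and from 235 to 8715 on PA, too far apart to give a difference (−0.18 ± 1.77).

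miR-92a, of the miR-17-92 cluster, read 837, 792 and 821 on PAA and 1000, 1360, 1331 and 1282 on PA. It was lower on PAA by −0.72 ± 0.11, under every one of 20 settings that measured it. On AA against PP the same probe differed by 3.50, the other way. miR-19a* was lower by −0.84 ± 0.30, with a PA spot of 353 well above the other PA spots of 178 and 211.

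The other 8 of the 12 lower probes were miR-107 (−0.58 ± 0.19), miR-23b (−0.53 ± 0.09), miR-101a (−0.52 ± 0.12), miR-24 (−0.48 ± 0.05), miR-16c (−0.47 ± 0.18), miR-30e (−0.46 ± 0.11), miR-182* (−0.43 ± 0.06) and miR-146b (−0.29 ± 0.07). Of the 12, 11 exceeded the BLANK level on both arrays, and miR-107 on PAA only. miR-30e turned to 0.91 when spots that the scan had set aside were included, and no other of the 12 changed direction under any setting run. The scale settings mostly moved differences down, so this does not show the lower probes to be firmer than the higher ones.

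**Figure D2:**
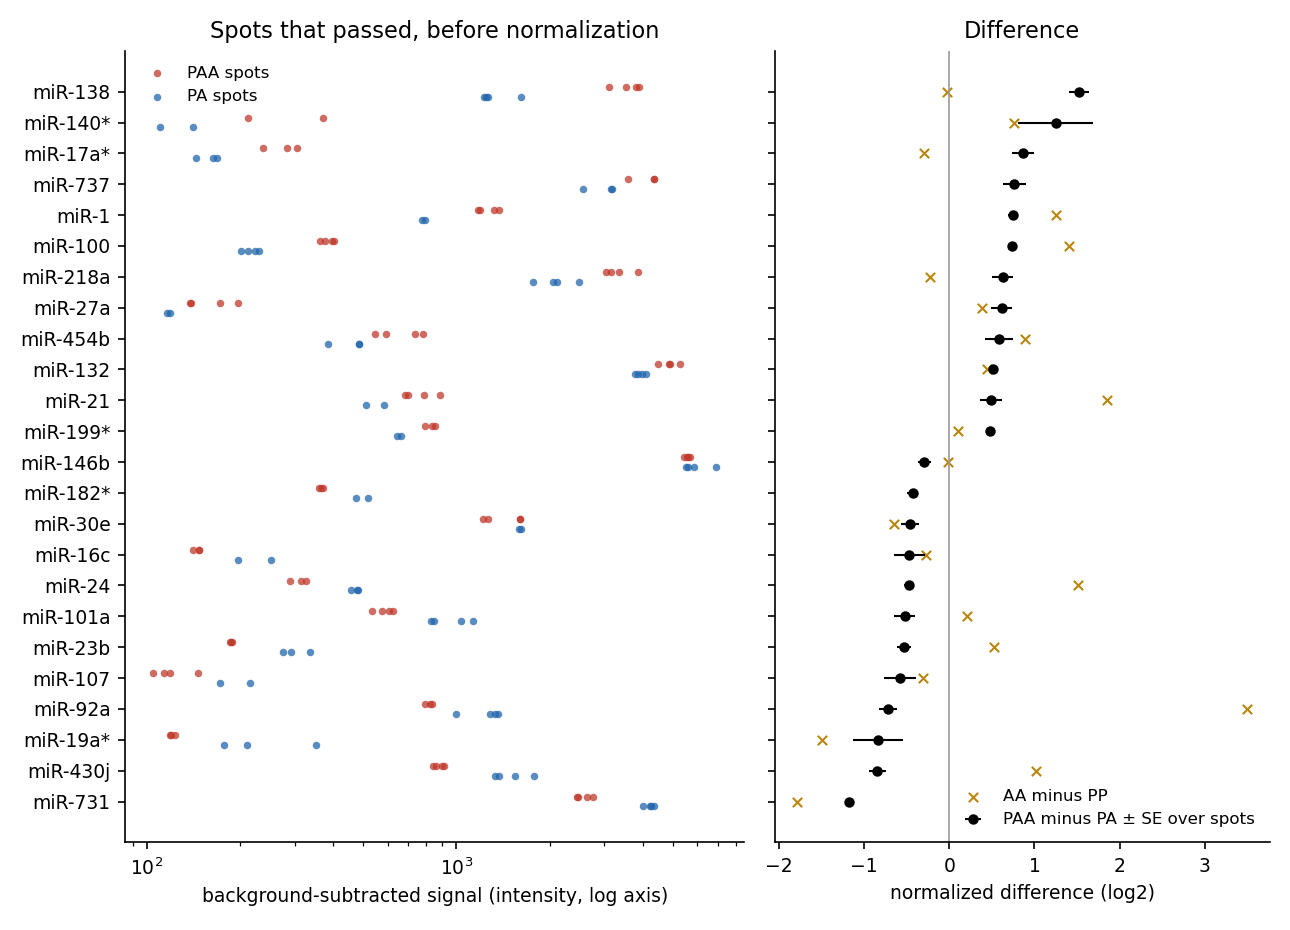
The 12 most higher and 12 most lower zebrafish probes on PAA whose spots did not overlap. Left, background-subtracted signal of each passing spot on a log axis, PAA in red and PA in blue; right, the normalized difference PAA minus PA on the log2 scale with its SE over spots (black) and the difference AA minus PP (crosses, no error drawn), which runs from 1.52 for miR-138 down to −1.18 for miR-731 in the black points.

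Each array prints a probe in 2 spots in the first 3 rows of subarrays and in 2 in the last 3 rows. Where both pairs gave a value, the directions matched in 7 of 7 of the higher and 10 of 10 of the lower named probes, which were chosen for spots that agree. Over all 116 probes measured in both, 75 matched (64.7%), with a Pearson correlation of 0.43 across probes. The median difference was −0.04 in the first rows and 0.16 in the last. The background and the spots set aside also varied along the slide. In the last row of subarrays 64.1% of zebrafish spots were set aside on PA and 27.1% on PAA, against 19.3% and 7.68% over all rows. Without that row, 3 probes were beyond 2-fold, all higher on PAA. The part of these rows in the differences was not tested beyond that.

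The AA array carries the genome that PAA has in addition, and PP the other. Of 114 probes with values in both comparisons, the direction of PAA against PA matched that of AA against PP in 67 (58.8%), with a Pearson correlation of 0.14 across probes. Among the named probes it matched in 8 of 11 of the higher and 6 of 11 of the lower. The AA and PP arrays lay on another slide in the same positions as PAA and PA, so genome and position cannot be told apart in this comparison either.

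A further 38 probes were detected on 1 of the hybrid arrays, 21 on PAA and 17 on PA. For 8 of the 21, too few spots were kept on PA to measure them. As shares of the 218 probes, these are 9.63% and 7.8%. For a probe under the detection limit on an array no difference can be given. What can be given is the ratio of its mean over the passing spots of the bright array to the lowest signal detected, or to its own dim signal where that is larger. This ratio was 1.5 or more for 12 probes, 7 brighter on PA and 5 on PAA. It counts only spots that passed on the bright array, so it is not a lower limit of the difference. The level over all kept spots is given beside it for miR-135b, miR-18b, miR-223 and miR-142b-5p only. For the other probes the ratio stands without that check.

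On PA the largest ratio was that of miR-135b (4.99), with passing spots of 593 and 700 on PA and 1 of 163 on PAA. Over all 4 kept spots its level was 172 on PA and 82.7 on PAA. miR-125b, a neural and muscle miRNA, had a ratio of 3.17, with spots of 175, 4055 and 426 on PA and a single passing spot of 3921 on PAA, so the brightest spot was alike on both arrays. miR-18b (3.16) read 388, 1026 and 110 on PA, spots that lie far apart, and over all kept spots 248 on PA and 70.2 on PAA. The other 4 were miR-132* (1.85), miR-301c (1.81), miR-148 (1.68) and miR-217, a pancreatic miRNA (1.56). All 4 lay under the BLANK level of PA, the array on which they were detected.

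On PAA the 5 were miR-223, a miRNA of granulocytes (2.22, spots of 345 and 164), miR-723* (2.12), miR-142b-5p of blood cells (2.04), the neuronal miR-129 (1.94, spots of 113 and 339) and miR-736 (1.56). Against the BLANK level of PA the first 4 ratios fell to 1.17, 1.12, 1.08 and 1.03, and miR-736 lay under that level. Over all kept spots miR-223 read 94.0 on PAA and 90.9 on PA, and miR-142b-5p 87.0 and 98.8.

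Of the tissues in the pool, brain gave the most to compare. Of 18 brain probes, 15 were detected on both arrays, 9 higher on PAA and 6 lower. Their median was 0.16 against 0.02 over all 147, and it turned to −0.03, −0.25 and −0.59 under 3 forms of Homo scaling, the only settings run that turned it. In 5 the spots did not overlap and PAA was higher: miR-138, miR-218a and miR-132, given above, with miR-219 and miR-137. These are 5 of 15 against 19.7% of all 147 probes, as 9 of 15 higher stand against 51%, and no brain probe separated the other way, against 11.6%. miR-219, which oligodendrocytes need for myelin, read 1589, 1591, 1831 and 1768 on PAA and 1091, 1148, 1408 and 1316 on PA, a difference of 0.35 ± 0.10. miR-137, of neuronal differentiation, read 346 to 410 on PAA and 294 to 296 on PA (0.29 ± 0.07). A probe of other vertebrates named miR-219, at 5514 on PAA and 6858 on PA after normalization, went the other way (−0.31 ± 0.04). So did an invertebrate miR-219 probe (−0.35 ± 0.09) and a dim vertebrate miR-137 probe (−0.29 ± 0.11). A dim vertebrate miR-218 probe was higher on PAA (0.38 ± 0.33).

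The remaining brain probes did not separate. The neural miR-9 read 4303, 4392 and 3413 on PAA and 4368, 4263 and 3504 on PA, much the same before normalization, and −0.22 ± 0.15 after it. The neuronal miR-124 read 170 and 213 on PAA and 323 and 184 on PA (−0.33 ± 0.44). miR-9* (−0.18 ± 0.14), miR-338 (−0.14 ± 0.28), miR-218b (−0.09 ± 0.09), miR-153c (−0.07 ± 0.08), miR-129* (0.08 ± 0.19), miR-153b (0.16 ± 0.08), miR-212 (0.33 ± 0.44) and miR-153a (1.02 ± 0.63) all had overlapping spots. miR-212, which shares a precursor transcript with miR-132, thus had a difference too uncertain to set beside it. Dim probes of other vertebrates named miR-9 (0.34 ± 0.13), miR-124a (0.30 ± 0.09) and miR-338 (0.97 ± 0.12) had the opposite sign to the zebrafish probes of these miRNAs. A bright vertebrate miR-129 probe was at 0.11 ± 0.28. miR-128 was detected on neither array, miR-129 on PAA only and miR-132* on PA only, the latter 2 with the ratios given above. Before normalization, the background-subtracted signal of the 15 summed to 20972 on PAA and 15808 on PA. All zebrafish probes detected on each array summed to 162967 and 153618. The brain sum is carried by its brightest probes, miR-138, miR-132, miR-218a and miR-9 among them. Whether the share of brain RNA in the pools differed was not tested.

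Muscle was measured with 6 of 7 probes, 3 higher and 3 lower, with a median of −0.03 that had the opposite sign under 6 of 21 settings, within −0.90 to 0.75. miR-1 alone had spots that did not overlap, and alone exceeded the BLANK level on both arrays. miR-206 read 153, 160, 155 and 140 on PAA and between 124 and 282 on PA (−0.07 ± 0.30). miR-133a (−0.15 ± 0.15), miR-133b (−0.37 ± 0.59), miR-133a* (0.02 ± 0.29) and miR-133c (0.998 ± 0.42) were as dim. miR-133a, which is transcribed with miR-1 from shared clusters, had a smaller value of the opposite sign. A brighter miR-133a probe of other vertebrates, at 1590 on PAA and 1835 on PA after normalization, was at −0.21 ± 0.08. miR-499 read 192, 192, 194 and 193 on PAA, and too few PA spots were kept to measure it.

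In liver and gut, 3 of 4 probes were measured on both arrays, with overlapping spots in each. miR-122, the dominant liver miRNA of vertebrates, read 302, 294, 219 and 231 on PAA and 231, 241 and 184 on PA (0.29 ± 0.17). A brighter miR-122 probe of other vertebrates, at 1150 on PAA and 1328 on PA after normalization, had the opposite sign (−0.21 ± 0.14). miR-192, the brightest zebrafish probe on both arrays, read 21336 to 30806 on PAA and 21957 to 26949 on PA. Quantile normalization fixes the brightest probe at a difference of 0, so its value carries no comparison. miR-194b, which shares clusters with miR-192, differed by −0.13 ± 0.08, and miR-194a was detected on PA only.

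**Figure D3:**
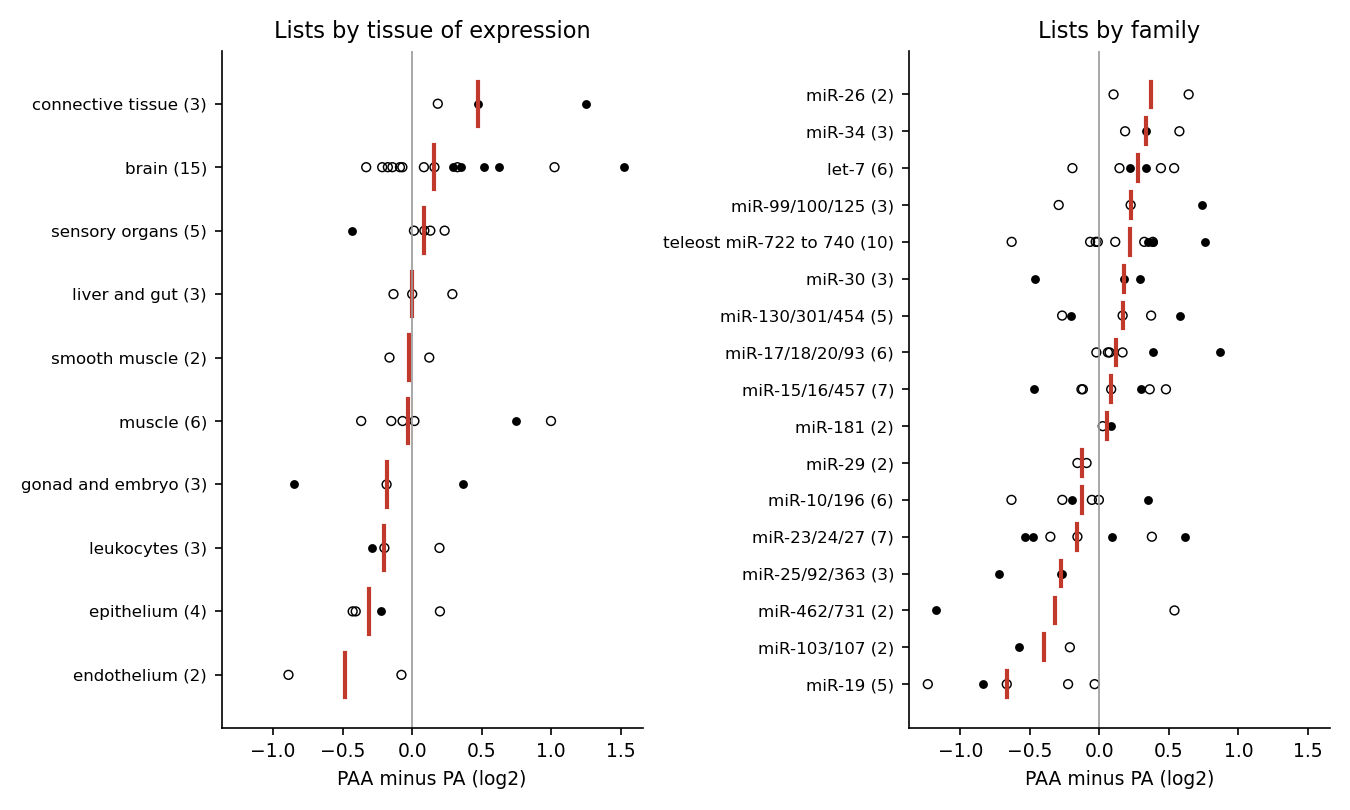
Difference PAA minus PA on the log2 scale for the members of each tissue list (left) and family list (right) with at least 2 probes detected on both arrays; the number measured stands in brackets. Each point is a probe, filled where its spots did not overlap between the arrays, and the red bar is the list's median; brain holds 5 filled points, all above 0, and the miR-19 and miR-25 family lists hold no point above 0. Among lists with 3 or more measured members, the medians of brain, connective tissue, let-7, miR-34, miR-30 and the families of miR-99, miR-130, miR-15 and miR-17, of sensory organs and of the teleost list turn below 0 with Homo scaling.

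Markers of other cell types were mostly dim. In connective tissue, 3 of 5 probes were measured and 3 were higher on PAA, miR-140*, miR-199* and miR-199 (0.18 ± 0.28), with a median of 0.48 that turned to −0.38 with Homo scaling. In epithelium 1 of 4 was higher and 3 were lower, with a median of −0.31, and only the skin miRNA miR-203a had separate spots (−0.22 ± 0.09). Zebrafish probes of miR-141, miR-200b and miR-200c were detected on neither array. Probes of other vertebrates with these names were higher on PAA (0.27 ± 0.60, 0.34 ± 0.37 and 0.99 ± 0.35), that of miR-200b being bright. Those named miR-203 (−0.08 ± 0.12 and −0.30 ± 0.32) and miR-429 (−0.03 ± 0.05) were lower. Of 8 leukocyte probes, 3 were measured on both arrays, 4 on PAA only and 1 on PA only, beside 9.63% and 7.8% of all zebrafish probes. The brightest, miR-146b, which inflammation induces, was lower on PAA as given above, and miR-155 was at −0.20 ± 0.13. The third, miR-142a-3p, was higher on PAA with overlapping spots (0.20 ± 0.27). Probes of other vertebrates named miR-146b, miR-155 and miR-142-3p were at 2.12 ± 1.38, −0.22 ± 0.24 and −0.09 ± 0.03. The red cell miR-451 differed by −0.15 ± 0.19 and the endothelial miR-126 by −0.08 ± 0.15, both with overlapping spots. In the sensory organ list miR-182* separated, while miR-182 (0.13 ± 0.21), miR-183 (0.23 ± 0.44) and miR-96 (0.01 ± 0.15) did not.

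Among families, the related miR-17-92, miR-106a-363 and miR-106b-25 clusters, known for promoting cell proliferation, hold several seed families with values of different sign. The difference between these families was not tested. None of the 3 measured members of the miR-25 family, which includes miR-92 and miR-363, was higher on PAA, and the spots of all 3 did not overlap: miR-92a, miR-25 (−0.28 ± 0.02) and miR-92b (−0.27 ± 0.11). Over all probes 11.6% separated this way and 51% were higher. miR-25 read 480, 459, 477 and 493 on PAA and 578 and 571 on PA. These are zebrafish probes only. Probes of other vertebrates named miR-363 were higher on PAA, at 0.13 ± 0.10 and 0.53 ± 1.02, as was an invertebrate miR-92b probe (1.85 ± 0.09). The family's median of −0.28 was negative under all 20 settings that gave it. The scale settings, which mostly moved differences down, are a weak check of this sign and of that of miR-19 below.

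None of the 5 measured miR-19 probes was higher either, with a median of −0.67 that was negative under all 20 settings. Only miR-19a* separated, however. On PA, where they were higher, miR-19a, miR-19c and miR-19d lay under the BLANK level. miR-19b* was at −1.23 ± 1.07 with spots of 114 and 150 on PAA and 696 and 163 on PA, and miR-19d (−0.67 ± 0.39), miR-19c (−0.22 ± 0.60) and miR-19a (−0.03 ± 0.65) overlapped. The miR-17 family (miR-17, miR-18, miR-20 and miR-93), from the same clusters, had 5 of 6 higher, with a median of 0.12 that was negative under 5 of 21 settings, total signal and Homo scaling among them. In it miR-17a read 367, 372, 333 and 338 on PAA and 355, 381, 318 and 335 on PA (−0.02 ± 0.07), and the probes that separated were the partner strands miR-17a* and miR-18b* (0.38 ± 0.10). Within 1 precursor, miR-17a and miR-17a* therefore differed by unequal amounts.

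Of 10 let-7 probes, the family of developmental timing, 6 were measured and 5 were higher. The median of 0.28 turned to −0.52 and −0.19 under 2 forms of Homo scaling. let-7g (0.34 ± 0.14) and let-7j (0.22 ± 0.09) separated, and both lay under the BLANK level on PA. Probes of other vertebrates named let-7a, let-7g and let-7f were at 0.07 ± 0.24, −0.07 ± 0.57 and −0.23 ± 0.99. The 3 members of the miR-34 family, known as targets of p53, were higher, with a median of 0.33 that turned to −0.40 with Homo scaling. miR-34c, at 1383 to 1543 on PAA and 1121 to 1220 on PA, separated (0.33 ± 0.05), and miR-34b (0.58 ± 0.32) and miR-34 (0.19 ± 0.44) did not. Probes of other vertebrates named miR-34b were at −0.30 ± 0.26 and 0.97 ± 1.23, and a probe named miR-34c was at 0.14 ± 0.28. An invertebrate miR-34 probe was lower on PAA (−0.49 ± 0.11).

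Other families were divided. In the list of miR-23, miR-24 and miR-27, clustered miRNAs of vessels and muscle, 3 of 7 were higher and 4 lower, and spots separated both ways: miR-27a and miR-27e (0.09 ± 0.04) were higher, and miR-23b and miR-24 lower. The bright members miR-23a (0.38 ± 0.27) and miR-27c (−0.35 ± 0.16) overlapped. In miR-30, miR-30c (0.29 ± 0.04) and miR-30a (0.18 ± 0.06) were higher and miR-30e lower, each with separate spots. Probes of other vertebrates named miR-30c (−0.10 ± 0.53) and miR-30e (0.22 ± 0.14) had the opposite sign. miR-30a lay under the BLANK level on PA, and the family's median of 0.18 was negative under 9 of 20 settings. In the list of miR-10 and miR-196, whose genes lie in the Hox clusters, 5 of 6 were lower with a median of −0.12. Of these miR-10b separated (−0.20 ± 0.10), under the BLANK level on PA, while miR-196b was higher (0.35 ± 0.05) and separated. miR-196a, of the same family, was at −0.63 ± 0.27 with overlapping spots.

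In the family of miR-15, miR-16 and miR-457, 4 of 7 were higher, miR-15c separating upwards (0.30 ± 0.07) and miR-16c downwards, and in that of miR-130, miR-301 and miR-454, 3 of 5 were higher, miR-454b separating upwards and miR-301b downwards (−0.20 ± 0.14). Their medians were 0.09 and 0.17, and both were negative with Homo scaling (−0.77 and −0.54). Both miR-103 and miR-107 were lower, the former at −0.21 ± 0.11 with overlapping spots and the latter as given above. On PA, where they were higher, both lay under the BLANK level. Of the 19 teleost miRNAs from miR-722 to miR-740, 10 were measured, 6 higher and 4 lower. Of these miR-737, miR-725 (0.38 ± 0.08) and miR-740 (0.35 ± 0.14) separated and were higher, with miR-725 under the BLANK level on PA. The list's median of 0.22 was negative under 6 of 21 settings, total signal and Homo scaling among them.

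Partner strands as a class were balanced. Of 26 on the chip, 18 were measured on both arrays, 9 higher and 9 lower. In 11 pairs both strands of a precursor were measured, and 7 had the same sign. miR-182* (−0.43 ± 0.06) and miR-182 (0.13 ± 0.21) were among those that did not.

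The chip also holds other probes, placed on the normalized scale by interpolation between the zebrafish probes. Their own distributions were not equalized between the arrays. Of those of other vertebrates 269 were higher on PAA and 176 lower, and of the invertebrate ones 76 and 40. The shares that follow thus come from unlike processing for zebrafish and other probes. Of those named only for invertebrate miRNAs, 10 of 116 differed more than 2-fold between PAA and PA (8.62%), and of those of other vertebrates 37 of 445 (8.31%), of those with a number only 4 of 61 (6.56%) and of those labelled ZF_miR 0 of 11 (0%), against 3.4% of the zebrafish probes. For 44 zebrafish probes, 49 probes of other vertebrates carry the same miRNA name and were measured on both arrays, which makes 50 pairs. The sign matched in 26 and was opposite in 24, with a Pearson correlation of −0.11 across pairs. Among the 13 pairs whose zebrafish spots did not overlap it matched in 5. Sequences of the probes are not analysed here, so how far such pairs differ in sequence is not known.

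**Figure D4:**
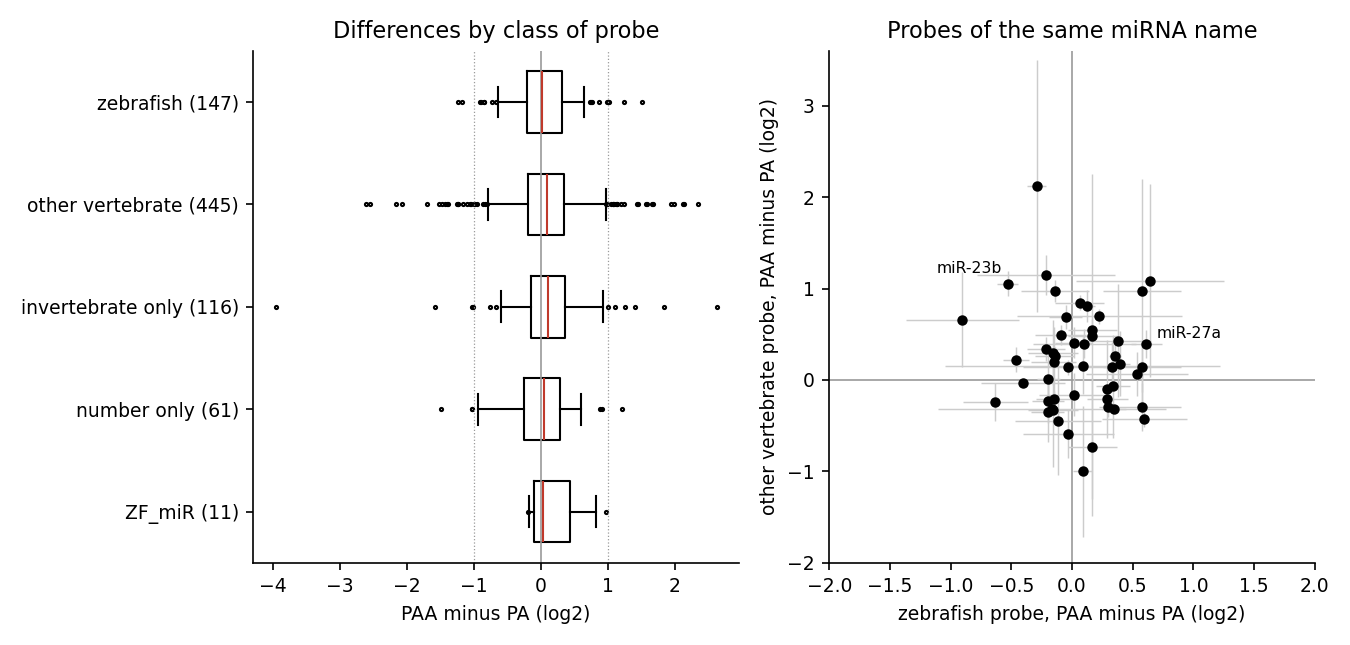
Left, difference PAA minus PA on the log2 scale by class of probe, with the number measured in brackets; boxes span the middle 50%, whiskers the 5th to 95th percentile, red lines are medians and dotted lines mark 2-fold. Right, the same difference for zebrafish probes (horizontal) and probes of other vertebrates with the same miRNA name (vertical), with SE over spots; the 50 pairs spread over all quadrants, with 26 of the same sign.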

How the data were processed

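Per the file headers, the deposited scanner files hold the foreground and local background intensity of each spot, quantified by the authors in QuantArray without background subtraction. Spots with a filter value of 1 were taken as kept. Background was subtracted, and spots with a foreground of at least 200% of the local background passed. A probe was detected with at least 2 of 4 passing spots, and its value was their mean log2 signal. The values of the zebrafish probes were quantile normalized across all 4 arrays, each array entering with the probes detected on it (Python 3.11.15, numpy 2.4.6, pandas 2.3.3). Other probes were not normalized themselves but placed on this scale by interpolation between zebrafish probes of the same array. The procedure was checked on simulated spots with even noise, balanced changes and a constant offset per array. These had no position effects or outlier spots, so the check does not cover such features of the real arrays.

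The authors' value table, in linear intensity, equalled the geometric mean foreground of kept spots times 1 for PAA and 0.943 for PA within 0.1%, for 100% of its 241 rows, and served as an alternative. Array medians in it were 257 and 272. Its scale is thus known and no centring was found, but how the factors were chosen is not. No columns of other samples were present.

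Named were the 12 largest differences each way with spots that did not overlap, the probes detected on 1 array at 1.5 or more times the detection limit of the other, and members of 12 tissue and 20 family lists. These members and lists were chosen with earlier results of these data known. The alternatives covered background correction, normalization, the spot filters and each spot left out. The number of arrays limits the precision.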

Additional observations from a re-analysis of the deposited data

Results flagged for a closer look

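Signal appeared in data that the comparison of zebrafish probes does not use. Probes named only for invertebrate miRNAs were detected nearly as often as zebrafish probes, 67.8% of them on PAA and 72.7% on PA, against 77.1% and 75.2%. Of the 336 positions an array with no name in the files, the brightest kept spot read 9267 on PAA and 8858 on PA, while the brightest BLANK spots read 522 and 233. Of the unnamed spots kept, 9.25% on PAA and 9.43% on PA exceeded the BLANK level.

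In 3 pairs of probes of the same miRNA name, the zebrafish probe and that of other vertebrates differed in opposite directions, each by more than 2 SE over spots. The probe of other vertebrates was at 1.05 ± 0.14 for miR-23b (zebrafish probe −0.53 ± 0.09), at −0.31 ± 0.04 for miR-219 (0.35 ± 0.10) and at −0.29 ± 0.11 for miR-137 (0.29 ± 0.07). The other probe of miR-137, at 117 on PAA and 143 on PA, lay under the BLANK level of PA. With 1 array a composition no difference was tested.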

How the results depend on the processing

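The count of 5 probes beyond 2-fold was 2 with normexp, 3 with no background subtraction, 14 of 210 without the filter on dim spots, 3 of 85 above the BLANK level, 1 of 44 with all 4 spots required and 17 of 166 with spots that the scan had set aside. It was 2 without spot 1, 3 without spot 4 and 3 without the last row of subarrays. Planned scaling on the median of the Homo spots gave 39. These 12 spots range from 343 to 32705 on PAA, and 2 other forms were added after its result was seen: comparing arrays spot by spot kept the count at 5, and the median of log2 signals gave 13. The Homo difference, PAA over PA, was 0.72, 0.17 and 0.38 in these forms.

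The share higher on PAA, 51%, was 36.1% with total signal, 4.76%, 29.3% and 16.3% under the Homo forms in that order, and 70.5% with all 4 spots required. The 38 probes detected on 1 array were 8 without the filter, 59 with all 4 spots required and 25 with set-aside spots included.

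The signs that follow are those of the named probes and of list medians larger than their members' median SE. Planned Homo scaling turned miR-1 (−0.030), miR-132 (−0.41), miR-199* (−0.38), miR-21 (−0.24), miR-218a (−0.042), miR-27a (−0.28), miR-454b (−0.17) and miR-737 (−0.25), and the medians of brain (−0.59), connective tissue (−0.38), let-7 (−0.52), the miR-99 family (−0.63), miR-30 (−0.69), miR-34 (−0.40) and the teleost list (−0.64). With log2 medians, miR-132 (−0.069), miR-199* (−0.044), brain (−0.25), connective tissue (−0.044), let-7 (−0.19), the miR-99 family (−0.29), miR-30 (−0.35), miR-34 (−0.062) and the teleost list (−0.30) turned. Spot by spot, brain (−0.031), the miR-99 family (−0.073), miR-30 (−0.13) and the teleost list (−0.085) did.

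Including set-aside spots turned miR-27a (−0.70), miR-30e (0.91), miR-737 (−0.36) and the miR-30 median (−0.00052). Without the dim filter miR-199* (−1.64), leukocytes (0.15), gonad and embryo (0.35), miR-30 (−0.044) and the teleost list (−0.0098) turned. Total signal turned miR-30 (−0.052) and the teleost list (−0.0045), and no background subtraction gonad and embryo (0.049). Requiring both arrays above BLANK turned miR-30 (−0.085), and requiring 4 spots the list of miR-10 and miR-196 (0.063). Leaving out spots turned gonad and embryo (0.063) and the miR-99 family (−0.20, without spot 1), connective tissue (−0.0027, spot 2) and miR-30 (−0.088 and −0.17, spots 3 and 4). In the authors' value table leukocytes (0.024), gonad and embryo (0.25), the miR-99 family (−0.33) and the teleost list (−0.14) turned. The cause was not tested.

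Of 464 values of named probes under these settings, 304 moved by less than the spread between spots and 14 changed sign. Of 413 list medians 339 did so, 66 changed sign, and 37 of these are given above; the others are of the muscle, sensory organ, miR-15, miR-17 and miR-130 lists, whose medians are smaller than that SE. The spot-by-spot form, chosen after the planned form was seen to turn 8 named probes, turned none of them. No paired analysis was possible because each composition had 1 array. The limits are 1 array a composition, slide position, and a BLANK level on PA that 62 of the 147 probes did not exceed.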
